A study of Gallus gallus with 24 samples.

Results

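The 7 genes IL13RA2, SPP1, CXCR4, NPTX2, TMEM35A, PENK and UAP1 were selected on their array signals, which were much lower when chick retinal pigment epithelium (RPE) was cultured in rcSF3, a medium conditioned by neural retina. They were read by 13 of the 38439 probe sets of a chicken genome array. The choice rested on large falls with rcSF3 and on no numerical threshold, so there are no genes just inside or outside a limit. The comparison of rcSF3 with SF3 without serum is therefore described for these genes without a test, and so are the other comparisons that use those arrays. The age and serum state behind the choice were not stated. The arrays without serum were taken as those used, since the fall of UAP1 as measured was large there alone. Tests were made on the arrays with serum. This basis is weak, because the fall of UAP1 rested on low signals. With signals under 100 raised to 100, its log2 differences in cultures of embryonic day 14 (E14) were alike, -0.55 without serum and -0.57 with it. UAP1 does not show how the other genes were chosen. If the choice also used the arrays with serum, the tests on them only describe the genes chosen.

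RPE is the pigmented epithelium that lies between the photoreceptors and the choroid and forms the outer blood-retinal barrier. The cells came from White Leghorn embryos at E7, when the tissue is immature, or at E14, and were grown on filters. The apical chamber held SF3, a serum-free medium, or rcSF3, which is SF3 in which E14 neural retinas had been incubated. The basal medium of all cultures held bovine pituitary extract, and in the groups with serum it also held serum. The authors used the same lot of serum for all arrays. They later found that lots differed in their effects on electrical resistance and gene expression, so the values with serum describe that lot. The groups at each age were SF3, SF3 with serum, rcSF3 with serum, and rcSF3, with 3 arrays each and 24 arrays in all. Each array measured a separate biologic repeat pooled from filters of 1 plating day. One code in the sample labels names serum 2 times and was read as rcSF3 with serum, the medium that no other code names. These are embryonic cells in primary culture. Only the groups with rcSF3 received the secretions of isolated retinas, and no retina, choroid or other tissue was present.

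The 7 genes belong to different systems. SPP1 encodes osteopontin, a secreted phosphoprotein of the matrix that binds integrins and CD44. PENK encodes proenkephalin, which peptidases cut into the enkephalins, the ligands of the delta and mu opioid receptors. NPTX2 encodes a secreted pentraxin that in mammals gathers AMPA-type glutamate receptors at synapses. IL13RA2 and CXCR4 are receptors of the cell surface. IL13RA2 binds interleukin-13 tightly and in mammals is often described as a decoy, since its short cytoplasmic tail does not carry the JAK and STAT signal of IL13RA1 and IL4R. CXCR4 is the G protein-coupled receptor of the chemokine CXCL12 and guides migrating cells. TMEM35A, also called NACHO, is a chaperone of the endoplasmic reticulum that in mammals helps to assemble nicotinic acetylcholine receptors. UAP1 is the enzyme that makes UDP-N-acetylglucosamine, the sugar donor for glycoproteins, proteoglycans and hyaluronan.

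The signal of a probe set is in arbitrary units, and differences are given on the log2 scale with the standard error (SE) of the fit. Levels were compared within a probe set and not between genes. Probe sets in the brighter 50% by mean signal at an age were tested, which made 19219 at E7 and 19219 at E14. At least 1 probe set of all 7 genes was kept at E7 and of 6 genes at E14, where CXCR4 was too dim. CXCR4 was kept at E7 through its signal in SF3. TMEM35A, too, would not have reached the lowest mean kept at either age without its arrays in SF3 without serum. Its results with serum at both ages stayed on the same side of the threshold when no filter was used. Signals under 100 were treated as dim, because array medians ran from 89.3 to 121. Dim signals entered some differences of the 7 genes on their brightest probe sets in the main fit. Where raising signals under 100 to 100 moved such a difference by more than 0.1, that value is given as well. It is not given for the pathway genes described below, some of which had dim groups. Arrays of the same group correlated at 0.918 to 0.939. The range was little lower for other groups of the same age (0.905 to 0.935) and between ages (0.894 to 0.935). The median difference over all probe sets was at most 0.08 in size in any comparison reported here. All 12 RPE markers listed had mean signals above 100 in all 8 groups. RNA was measured in bulk, so fewer cells that express a gene and less mRNA per cell cannot be told apart.

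In E7 cultures with serum, 5 of the 7 mRNAs fell when rcSF3 replaced SF3, namely NPTX2, IL13RA2, PENK, SPP1 and TMEM35A. They passed the threshold, an adjusted p under 0.05 by limma over all probe sets kept, while 9.90% of probe sets were lower by the same rule. UAP1 did not pass, and CXCR4 is not counted, since both its groups were dim. The 3 arrays in rcSF3 lay wholly below the 3 in SF3 for all 7 genes, the dim CXCR4 included, as they did for 18.8% of probe sets. NPTX2 and IL13RA2 fell the most, by more than 10-fold, and PENK and SPP1 fell by 4.87-fold and 4.63-fold. In E14 cultures with serum, NPTX2, SPP1 and PENK fell in the main fit, which did not pair arrays by replicate number. These were 3 of the 6 genes tested, against 1.73% of probe sets lower. The arrays lay apart for 4 of the 6, against 10.4% of probe sets. In the fit that pairs arrays by their replicate number within a serum state, 4 of the 6 fell. The same pairing raised the number of probe sets called in that comparison, in either direction, from 540 to 1507. The genes were taken as chosen on the arrays without serum, so the counts on those arrays only describe the choice and are no evidence for it. There the arrays in rcSF3 lay wholly below those in SF3 for 6 of 7 genes at E7 (20.4% of probe sets). At E14 they did so for 6 of 6 (12.7%).

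**Figure D1:**
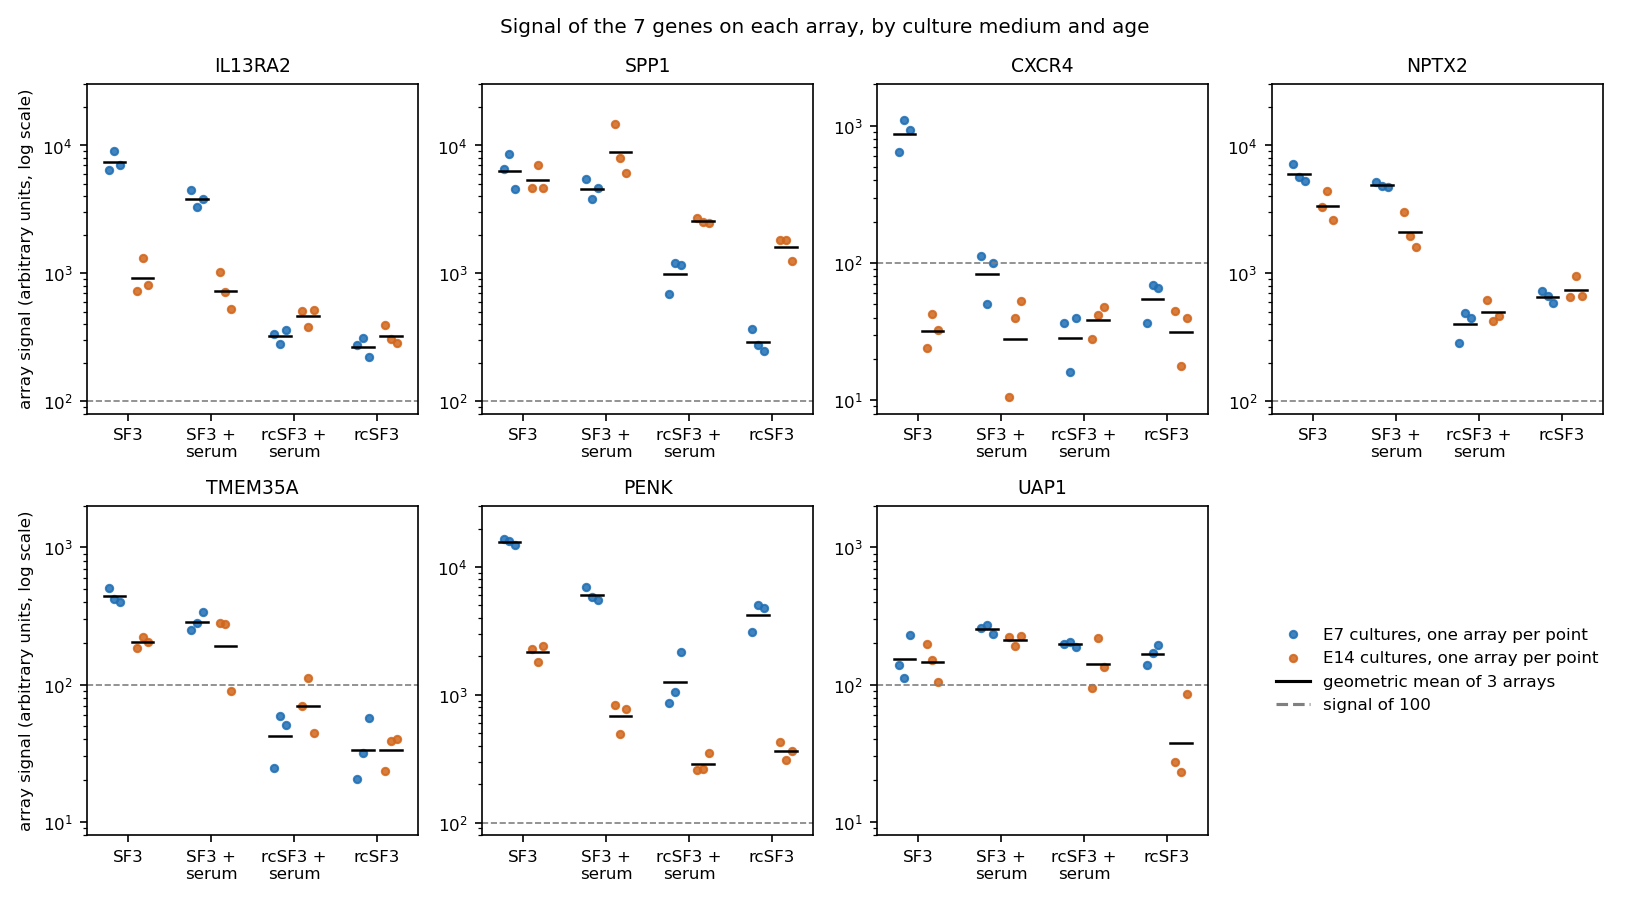
Array signal (arbitrary units, log axis, with 2 ranges of the axis over the panels) of each gene in the 4 media, for E7 cultures (blue) and E14 cultures (orange). Each point is 1 array, the black bar is the geometric mean of 3 arrays, and the dashed line marks a signal of 100, below which lie all 3 arrays of CXCR4 in every E14 group.

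Osteopontin mRNA was abundant in SF3 at both ages. At E7 the signals of SPP1 in SF3 were 6530, 8522 and 4601, and in rcSF3 they were 368, 276 and 246. The groups were far apart, and the difference was -4.44, the third largest fall among the probe sets kept at E7. At E14 the signals were 4622, 7092 and 4682 in SF3 against 1821, 1822 and 1246 in rcSF3, a difference of -1.74. With serum at E7, SPP1 gave 5419, 3795 and 4662 in SF3 and 694, 1205 and 1154 in rcSF3. The arrays again did not overlap, and SPP1 fell by 2.21 on the log2 scale (SE 0.23, adjusted p = 2.2e-05). With serum at E14 the signals were 14742, 7985 and 6135 in SF3 and 2703, 2512 and 2493 in rcSF3, a fall of 1.81 (SE 0.25, adjusted p = 0.0020). In the analysis of variance without moderated variances, the adjusted p of that fall was 0.053.

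In rcSF3, the level of SPP1 was higher with serum than without it at both ages, a comparison that was not tested. At E7, rcSF3 with serum was 1.76 above rcSF3, so the difference made by rcSF3 was 2.23 smaller in size with serum than without it. At E14 the differences made by rcSF3 with and without serum were nearly equal, with a gap of -0.07. SPP1 was also the only one of the 7 genes to be higher at E14 than at E7 in a test. It was higher at E14 by 0.97 in SF3 with serum (SE 0.27, adjusted p = 0.0088) and, with an adjusted p of 8.2e-04, by 1.38 in rcSF3 with serum (SE 0.27). The first of these rests in part on the array at 14742, without which the difference was 0.61 (adjusted p = 0.083).

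Proenkephalin mRNA had a lower mean in each of the other media than in SF3, and its level was much higher at E7. At E7 the signals of PENK were 16571, 16017 and 14787 in SF3, then 7010, 5839 and 5519 with serum, and 3106, 5004 and 4780 in rcSF3. The lowest E7 group was rcSF3 with serum at 867, 1046 and 2151. These 4 groups did not overlap at all, in the order SF3, SF3 with serum, rcSF3, rcSF3 with serum. The differences from SF3 were -1.37 with serum and -1.91 with rcSF3, and with rcSF3 added in the presence of serum PENK fell by 2.29 (SE 0.25, adjusted p = 3.1e-05). The responses of PENK to rcSF3 with and without serum differed by -0.38 at E7.

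At E14 the same order held for the means, at lower levels. PENK gave 2282, 1810 and 2428 in SF3, and 832, 490 and 771 with serum. The signals were 427, 312 and 366 in rcSF3 and 257, 262 and 352 in rcSF3 with serum, and these groups overlapped. With serum, PENK fell by 1.24 when rcSF3 replaced SF3 (SE 0.20, adjusted p = 0.0050, and 0.060 in the analysis of variance without moderated variances). Without serum the difference was -2.56, so that at E14 the gap between the responses with and without serum was 1.32. The age difference was the largest of the 7 genes in both media with serum. PENK was lower at E14 by 8.96-fold in SF3 with serum (log2 -3.16, SE 0.25, adjusted p = 3.5e-09) and by 4.35-fold in rcSF3 with serum (log2 -2.12, SE 0.25, adjusted p = 2.3e-06).

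The mRNA for the pentraxin NPTX2 was lower in rcSF3 by a similar amount with and without serum. At E7 its signals were 7172, 5714 and 5320 in SF3 and 721, 666 and 585 in rcSF3, a difference of -3.20. With serum they were 5162, 4855 and 4709 in SF3 and 286, 491 and 450 in rcSF3. NPTX2 fell by 12.3-fold in that comparison (log2 -3.62, SE 0.17, adjusted p = 5.6e-09), the fourth largest fall among the probe sets tested. A second probe set of the same gene had the third largest, with -3.76.

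At E14 NPTX2 gave 3318, 4430 and 2630 in SF3 against 658, 944 and 669 in rcSF3, a difference of -2.18. With serum it gave 3044, 1955 and 1606 in SF3 against 624, 420 and 463 in rcSF3, and fell by 2.10 (SE 0.23, adjusted p = 8.5e-04). The gap between the responses with and without serum was -0.42 at E7 and 0.08 at E14. On the brightest probe set of NPTX2, the arrays of both ages overlapped in rcSF3 with and without serum. Its level in SF3 with serum was lower at E14 by 1.21 (SE 0.22, adjusted p = 2.7e-04). In rcSF3 with serum it differed between the ages by 0.31 (SE 0.22, adjusted p = 0.36). The other probe sets of the gene lay wholly higher at E14 in rcSF3 without serum (0.66 and 0.79). With serum the dimmest did so too (0.56).

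**Figure D2:**
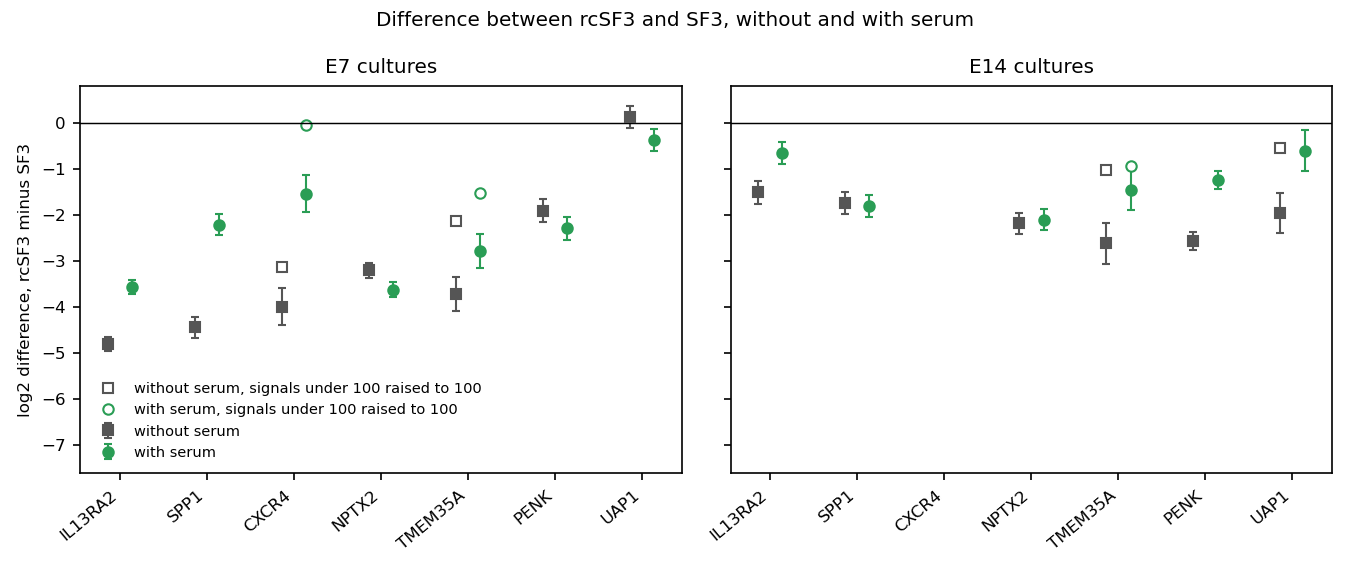
Difference between rcSF3 and SF3 (log2, vertical axis) for each gene without serum (grey squares) and with serum (green circles) at E7 (left) and E14 (right). Bars are the SE of the fit, open symbols give the value with signals under 100 raised to 100 where that moved it by more than 0.1, and CXCR4 is not drawn at E14 because it was not kept there. IL13RA2 and NPTX2 lay near -3.6 at E7 with serum.

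Without serum at E7, IL13RA2 had the largest difference of the 7 genes, and the level from which it fell was found at E7 alone. Its signals in SF3 were 6435, 9082 and 7036 at E7 but 732, 1323 and 807 at E14. In rcSF3 they were 274, 312 and 222 at E7 and 392, 305 and 284 at E14. The differences made by rcSF3 were -4.80 at E7, the second largest fall among the probe sets kept, and -1.51 at E14. With serum at E7, IL13RA2 gave 4488, 3305 and 3781 in SF3 and 334, 281 and 363 in rcSF3. It fell by 11.8-fold (log2 -3.56, SE 0.16, adjusted p = 4.4e-09).

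With serum at E14 the signals of IL13RA2 were 1015, 720 and 524 in SF3 and 504, 379 and 513 in rcSF3. The lowest array in SF3 lay just above the highest in rcSF3, and the difference of -0.66 (SE 0.24) did not pass the threshold (adjusted p = 0.16). The difference between the ages in this response was 2.91 (SE 0.31, adjusted p = 2.2e-05), where 0.694% of probe sets were called in that direction. In SF3 with serum IL13RA2 was 5.27-fold lower at E14 (log2 -2.40, SE 0.22, adjusted p = 4.8e-08), while in rcSF3 with serum it was 0.51 higher at E14 (SE 0.22, adjusted p = 0.12). Serum alone, in the absence of rcSF3, went with a lower level at E7 (-0.96), and the 3 arrays of each group did not overlap.

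CXCR4 mRNA stood clear of the dim range in a single group, E7 cultures in SF3, with signals of 647, 1109 and 938. With serum the signals at E7 were 113, 50.6 and 99.9, in rcSF3 they were 36.4, 69.5 and 66.2, and in rcSF3 with serum they were 36.4, 16.1 and 39.5. All 12 arrays of E14 lay between 10.5 and 53.2. Among the other 21 arrays, then, 1 was above 100, at 113. With dim signals raised to 100, CXCR4 in SF3 at E7 was at least 8.76-fold higher than in rcSF3 and at least 8.42-fold higher than in SF3 with serum. The last of these was the second largest fall with serum among the probe sets kept at E7 (log2 -3.40 as measured). With serum, the means of CXCR4 in SF3 and rcSF3 were both under 100, and it was tested there only because of its signal in SF3 without serum. The difference of -1.54 as measured (SE 0.41, adjusted p = 0.015) became -0.06 (adjusted p = 0.86) when dim signals were raised to 100, so it is not counted as a fall. The lower signal at E14 in SF3 with serum (-1.56 as measured, SE 0.56, adjusted p = 0.040) likewise became -0.06 (adjusted p = 0.82), its arrays overlapped, and it is not counted either. Since most of its groups were dim, the order of CXCR4 among them is not known.

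TMEM35A, the chaperone of nicotinic receptors, had low signals in SF3 and dim signals in rcSF3. At E7 it gave 501, 422 and 402 in SF3 and 20.6, 31.5 and 56.8 in rcSF3. With serum at E7 it gave 249, 281 and 340 in SF3 and 24.8, 58.5 and 51.0 in rcSF3. The groups were apart, and with serum TMEM35A fell by 2.78 as measured (SE 0.37, adjusted p = 1.3e-04), or at least 2.88-fold against the level of 100. At E14 the signals were 185, 222 and 203 in SF3 and 23.5, 38.9 and 40 in rcSF3, which made TMEM35A at least 2.03-fold higher in SF3.

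With serum at E14, TMEM35A gave 279, 278 and 89.4 in SF3 and 69.7, 111 and 44.1 in rcSF3. The third array in SF3 lay within the range of rcSF3, and the difference of -1.45 (SE 0.44), or -0.94 with dim signals raised to 100, did not pass the threshold (adjusted p = 0.096). It passed in the fit with the pairing by replicate number within a serum state (adjusted p = 0.016) and without the array at 89.4 (-2.0, adjusted p = 0.025). TMEM35A did not pass the threshold for the age in either medium with serum, at -0.59 in SF3 (SE 0.43, adjusted p = 0.33) and 0.73 in rcSF3 (SE 0.43, adjusted p = 0.26), where the last became 0.05 with dim signals raised to 100.

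UAP1, the enzyme of the hexosamine pathway, stood apart from the other 6 genes. As measured, its largest difference between rcSF3 and SF3 was at E14 without serum. There it gave 198, 152 and 104 in SF3 and 27.2, 23.1 and 84.8 in rcSF3, a difference of -1.96 as measured, or -0.55 and at least 1.46-fold against the level of 100. At E7 the signals were 139, 111 and 230 in SF3 and 140, 169 and 195 in rcSF3, with overlap and a difference of 0.12. With serum UAP1 lay at 257, 271 and 232 in SF3 and at 197, 205 and 186 in rcSF3 at E7, a difference of -0.37 (SE 0.24, adjusted p = 0.30). At E14 with serum it gave 223, 190 and 225 in SF3 and 94.4, 217 and 134 in rcSF3, a difference of -0.60 (SE 0.44, adjusted p = 0.50). With dim signals raised to 100 that difference became -0.57, close to the -0.55 without serum. A single group, E14 in rcSF3 without serum, thus held all 3 of its arrays under 100.

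**Figure D3:**
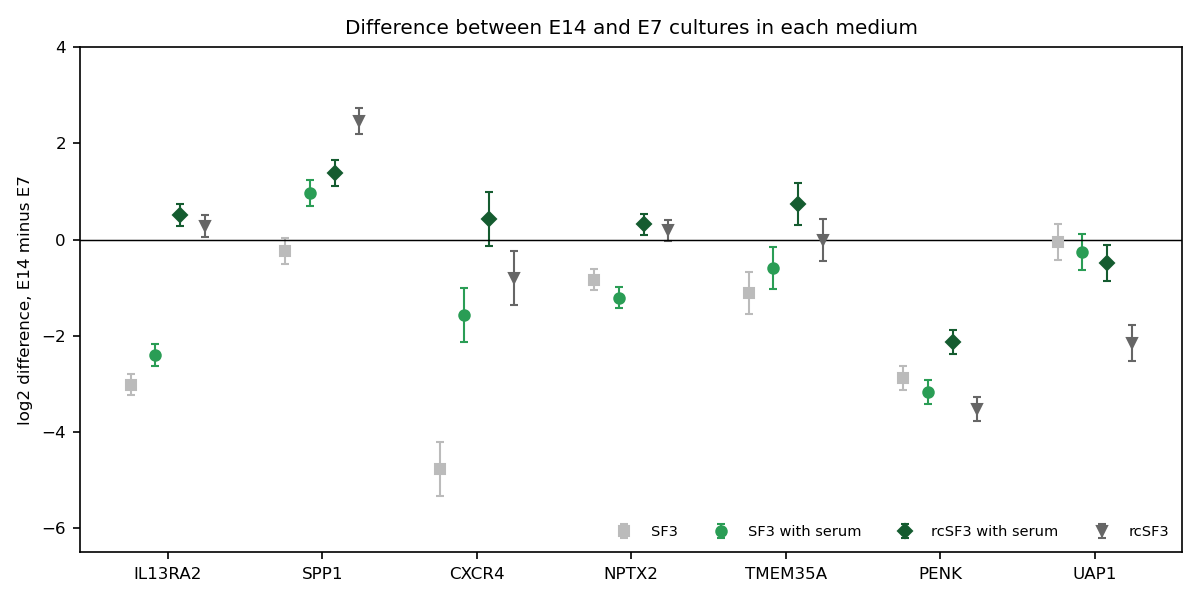
Difference between E14 and E7 cultures (log2, vertical axis, above 0 where E14 was higher) for each gene in SF3, SF3 with serum, rcSF3 with serum and rcSF3. Bars are the SE of the fit over 24 arrays. PENK lay below 0 in all 4 media and SPP1 above 0 in 3 of them. The CXCR4 points other than SF3, and the TMEM35A points in both media with rcSF3, compare dim signals. With signals under 100 raised to 100, UAP1 in rcSF3 went from -2.14 to -0.73 and CXCR4 in SF3 from -4.78 to -3.13.

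The ages were set side by side in the media with serum. In SF3 with serum, 3 of the 7 genes were lower at E14, namely IL13RA2, NPTX2 and PENK, with the dim CXCR4 left out, and SPP1 was higher, while 14.9% of probe sets were lower and 13.4% higher. In rcSF3 with serum, 1 gene was lower, PENK, and 1 was higher, SPP1, with 9.74% of probe sets lower and 8.58% higher. These 2 comparisons use different arrays, and subtracting one from the other asks whether rcSF3 acted alike at E7 and E14 in the presence of serum. The responses differed for IL13RA2, as given above, and for NPTX2 (1.52, SE 0.31, adjusted p = 0.015), which both fell less at E14. PENK did not pass (1.04, SE 0.35, adjusted p = 0.14) unless the array at 2151 in rcSF3 with serum at E7 was left out (1.43, adjusted p = 0.011). The threshold was also not passed by SPP1 (0.41, with an SE of 0.38 and an adjusted p of 0.67), TMEM35A (1.33, SE 0.61, adjusted p = 0.31), CXCR4 (1.98, SE 0.79, adjusted p = 0.23) and UAP1 (-0.23, SE 0.53, adjusted p = 0.89). With dim signals raised to 100, the values became 0.59 for TMEM35A and 0.06 for CXCR4. The call for NPTX2 was lost without the first array of rcSF3 with serum at E7 (1.28, adjusted p = 0.066) or without the third array of SF3 with serum at E14 (1.32, adjusted p = 0.059).

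Serum without rcSF3 was compared with SF3 on arrays taken as used in the choice of genes, so these values have no test. The 3 arrays with serum lay wholly below those in SF3 for 5 of 7 genes at E7 (27.8% of probe sets) and for 1 of 6 at E14 (20.5%). At E7 the differences ran from -3.40 for CXCR4 and -1.37 for PENK through -0.96 for IL13RA2, -0.61 for TMEM35A, -0.47 for SPP1 and -0.30 for NPTX2 to 0.73 for UAP1. At E14 PENK again was low (-1.67), NPTX2 (-0.67), IL13RA2 (-0.34) and TMEM35A (-0.09) overlapped between the media, and UAP1 (0.54) and SPP1 (0.74) were above SF3 with overlap. In the presence of rcSF3, serum went with higher SPP1 at both ages (1.76 and 0.68) and with lower PENK at E7 (-1.75). The brightest probe set of NPTX2 was lower at both ages (-0.72 and -0.59), while another gave -0.43 and -0.52 and the dimmest 0.16 and -0.07. UAP1 was 1.89 higher with serum in rcSF3 at E14, or 0.51 with dim signals raised to 100. The ratio of the 3′ to the 5′ probe sets of actin, a sign of RNA length, was lower in all groups with serum (log2 0.19 to 0.44) than in those without (0.55 to 0.89), while the means for GAPDH lay between -0.15 and -0.03. Its part in the serum differences was not tested.

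Several of the genes were read by more than 1 probe set. The 3 probe sets of NPTX2 followed each other over the 24 arrays, with Pearson's r of 0.99 and 0.95 with the brightest. In E7 cultures with serum the differences made by rcSF3 were -3.62, -3.76 and -2.38. IL13RA2 had 4 probe sets. The second brightest gave 1173, 1069 and 1042 in SF3 at E7 and 363, 334 and 276 with serum, and was under 100 in both E7 groups with rcSF3. It fell by 2.19 at E7 with serum (SE 0.27, adjusted p = 6.4e-05), or 1.69 with dim signals raised to 100, and correlated at 0.87 with the brightest. At E14 it was too dim to be kept and did not show the fall of the brightest. Without serum it gave 128, 165 and 102.5 in SF3 and 88.8, 121 and 112 in rcSF3, with overlap (-0.28). With serum all its E14 arrays were under 100. The other 2 were dim, with group means under 100 in 7 and 8 of the groups, and the other probe set of TMEM35A was dim in all 8 groups and did not follow the first (r = 0.15). SPP1, CXCR4, PENK and UAP1 each had 1 probe set, so no second reading of them was possible on this array.

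**Figure D4:**
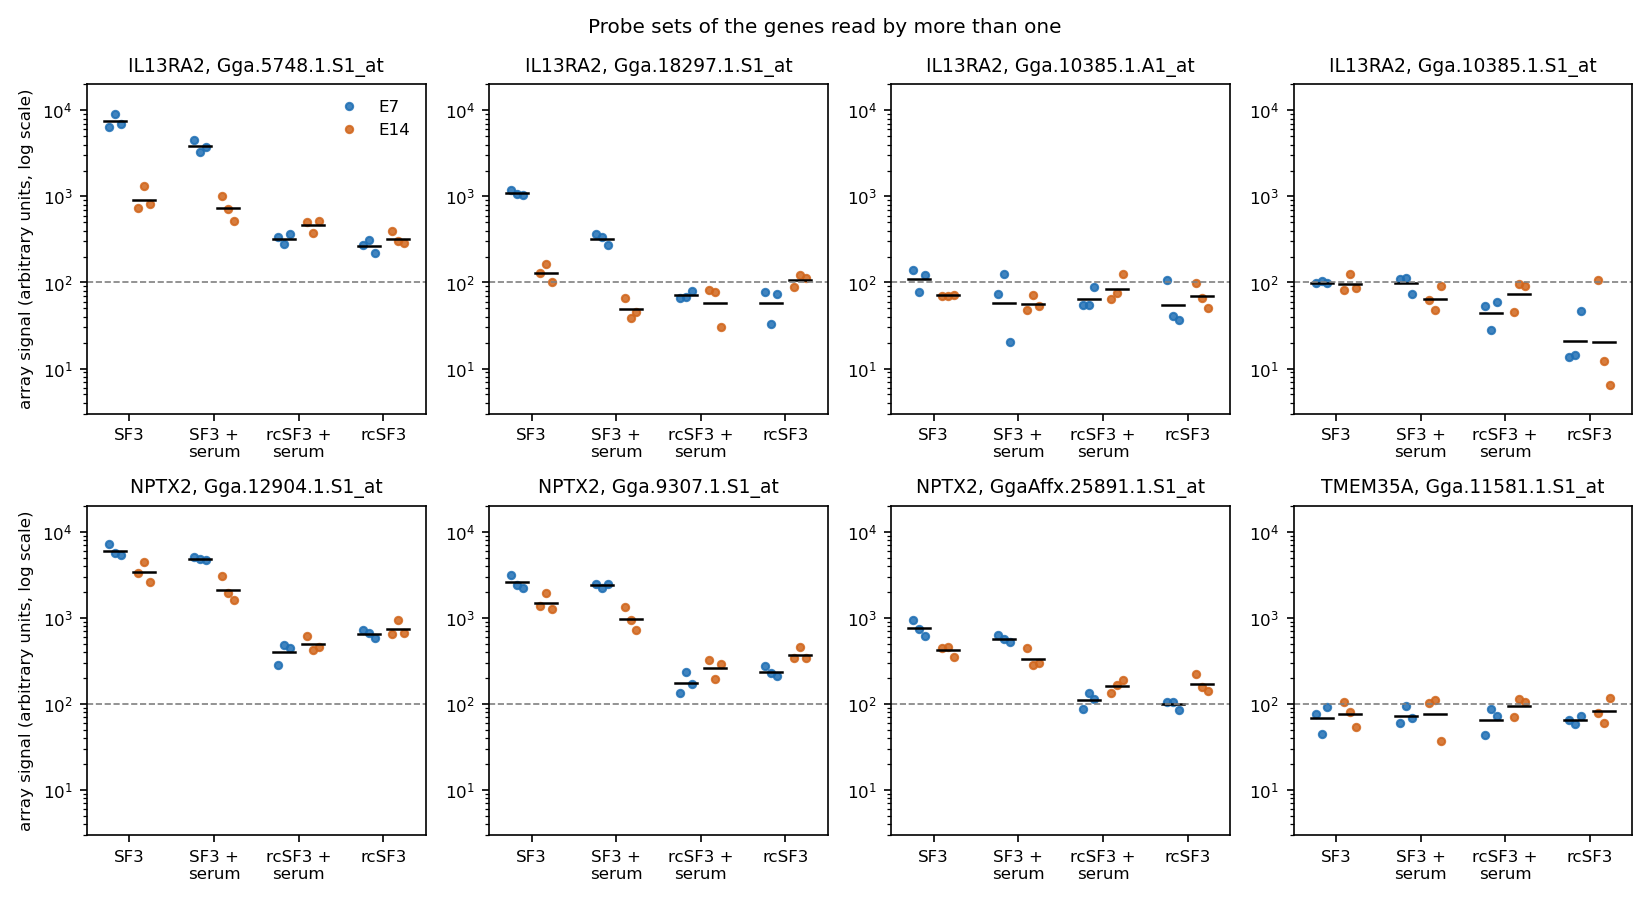
Array signal (arbitrary units, log axis) of each probe set of IL13RA2 and NPTX2 and of the second probe set of TMEM35A in the 4 media, for E7 (blue) and E14 (orange). Each point is 1 array, the black bar is the geometric mean of 3 arrays and the dashed line marks 100. The 3 probe sets of NPTX2 are all lower in both media with rcSF3, while 2 of the 4 of IL13RA2 stay near or under 100.

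The genes of the pathways around the 7 made up 116 genes in 7 lists, of which 97 had a symbol on the array. They were listed by function and not by how they moved, although earlier results of these data were known, and were tested in all comparisons. With rcSF3 at E7, 57 of them were kept, of which 9 fell and 8 rose. This is 29.8% of those tested, against 26.8% of all probe sets, so as a body the partners changed about as often as any gene. The median difference was -0.07 for the partners and -0.02 for all probe sets. Leaving out any 1 array kept 13 of the 17 calls. At E14 without serum 8 of 56 fell and 2 rose, which is 17.9% against 9.57% of all probe sets, and 2 of those calls held without any 1 array. The pairing by replicate number within a serum state raised the E14 count over all probe sets from 1840 to 3005.

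The partners of the receptors and of the secreted proteins moved in both directions. IL13RA1 and IL4R, the signaling receptors of interleukin-13, differed by 0.07 and 0.44 with rcSF3 at E7 (adjusted p = 0.89 and 0.23). SOCS1 and SOCS3, which are feedback inhibitors of JAK and STAT signaling, rose by 0.98 (SE 0.14, adjusted p = 1.0e-04) and 1.02 (SE 0.16, adjusted p = 1.9e-04), and SOCS3 also rose at E14 by 0.80 (SE 0.17, adjusted p = 0.0086). IL13RA1 was 1.62 higher at E14 than at E7 in SF3 with serum (SE 0.26, adjusted p = 6.8e-05), the medium in which IL13RA2 was lower at E14. The ligand of CXCR4, CXCL12, rose by 0.63 with rcSF3 at E7 (SE 0.09, adjusted p = 8.1e-05). The chemokine CXCL14, one of the brightest mRNAs in the list, fell by 0.71 (SE 0.07, adjusted p = 2.1e-06). Of the osteopontin receptors 1 of 7 changed, against 26.8% of all probe sets. It was ITGB5, the beta subunit that pairs with integrin alpha V, which fell by 0.53 (SE 0.09, adjusted p = 6.3e-04). At E14, ITGB5 and the osteopontin receptor CD44 fell by 0.36 each (adjusted p = 0.011 and 0.042), calls that were lost when some single arrays were left out.

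Of the 5 opioid genes tested, 1 changed with rcSF3 at E7 (26.8% of all probe sets) and 2 at E14 (9.57%). With serum alone at E7, 4 changed (38.3% of all probe sets). CPE, carboxypeptidase E, which trims enkephalins and other peptides in secretory granules, fell by 0.88 with rcSF3 at E7 (SE 0.13, adjusted p = 1.1e-04) and by 1.02 with serum at E7 (SE 0.13, adjusted p = 2.5e-05). PENK was lower by 1.91 and by 1.37 in these comparisons. In the media with serum, where PENK fell with rcSF3 at both ages, CPE differed by 0.12 at E7 and 0.11 at E14 (adjusted p = 0.54 and 0.62). SCG5, a chaperone of the prohormone convertase PCSK2, fell with serum by 0.97 (SE 0.12, adjusted p = 2.5e-05) and differed by -0.17 with rcSF3 (adjusted p = 0.32). The nociceptin receptor OPRL1 fell with rcSF3 at E14 by 1.13 (SE 0.20, adjusted p = 0.0024) to a mean under 100. Of the 10 nicotinic genes tested at E7, 1 changed with rcSF3 without serum (26.8% of all probe sets) and 1 with serum present (21.0%). Both times it was CHRNA4, a subunit of the nicotinic receptor. CHRNA4 rose by 1.06 without serum (SE 0.13, adjusted p = 2.0e-05) and by 0.74 with it (SE 0.13, adjusted p = 8.9e-04), in the cultures in which TMEM35A was dim.

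Of the 17 hexosamine genes tested, 5 fell with rcSF3 at E7 and 2 rose, which is 41.2% against 26.8% of all probe sets, while UAP1 itself overlapped between the media there. Those with the lowest p were PGM3, the enzyme of the step before UAP1, which fell by 0.55 (SE 0.08, adjusted p = 1.4e-04), OGT, which attaches N-acetylglucosamine to proteins and fell by 0.85 (SE 0.13, adjusted p = 2.1e-04), GNE, which starts sialic acid synthesis and fell by 0.87 (SE 0.17, adjusted p = 0.0015), and ALG14, which takes part in the start of N-glycan assembly and rose by 0.80 (SE 0.18, adjusted p = 0.0034). Among the partners tested in E7 cultures with serum, 7 of 57 fell and 5 rose with rcSF3 (21.0% of all probe sets changed), and 5 of these 12 calls held without any 1 array. They were SOCS1, ITGA8, GNAI1, CHRNA4 and OGT. In E14 cultures with serum 0 of 56 fell and 1 rose, NPTX1, a relative of NPTX2, by 1.18 (SE 0.29, adjusted p = 0.043) from a mean of 75.0, and 2.81% of all probe sets changed. The call for NPTX1 was lost when any one of 5 arrays was left out. With serum and no rcSF3, 29 of 57 changed at E7 (38.3% of all probe sets) and 22 of 56 at E14 (23.7%).

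**Figure D5:**
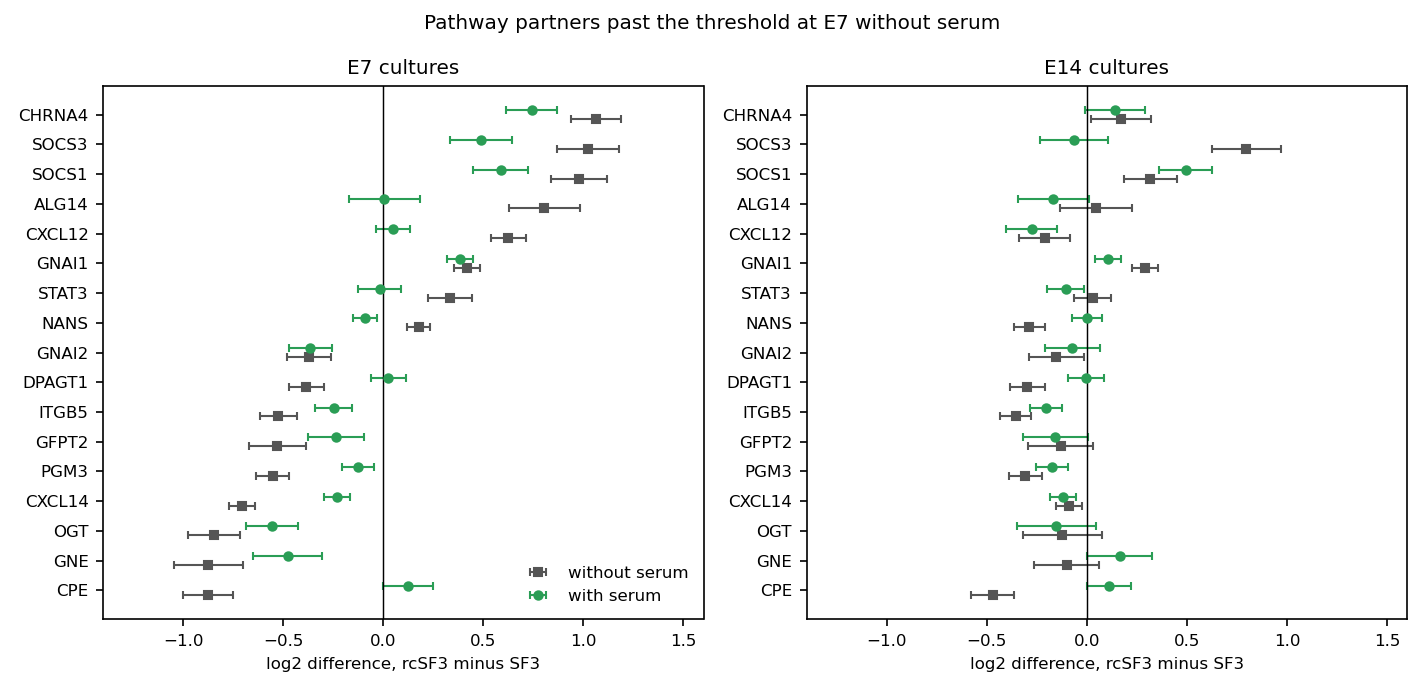
Difference between rcSF3 and SF3 (log2, horizontal axis) of the 17 pathway partners that passed the threshold at E7 without serum, shown without serum (grey squares) and with serum (green circles) at E7 (left) and E14 (right). Bars are the SE of the fit. The differences span -0.88 for CPE to 1.06 for CHRNA4 at E7 without serum.

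The profiles of the 7 genes over the 24 arrays were related to each other to unequal degrees. The arrays share 8 groups, so these correlations describe the groups and carry no test. NPTX2, IL13RA2 and TMEM35A were the most alike, with Pearson's r of 0.89 for NPTX2 with TMEM35A, 0.89 for IL13RA2 with NPTX2 and 0.86 for IL13RA2 with TMEM35A. SPP1 and PENK were least alike among the other pairs that leave out UAP1 (r = 0.08), and their order by age was opposite in the media with serum. UAP1 reached 0.43 at most with any of the others.

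Among 14878 probe sets with 1 gene symbol kept at both ages, the genes most like IL13RA2 were NME3 (r = 0.98), FABP3 (0.96) and STK35 (0.95). FABP3, a fatty acid-binding protein, had a mean of 1221 in SF3 at E7, 566 with serum and 89.3 in rcSF3. For SPP1 they were HVCN1 (0.95), G0S2 (0.93) and AANAT (0.93), and for NPTX2 they were LOC427799 (0.95), GABBR2 (0.94) and CACUL1 (0.93). GABBR2, a subunit of the GABA-B receptor, went from 902 in SF3 to 166 in rcSF3 at E7. PENK was most like BZW2, HMGN5 and COPE (0.95 to 0.96), and TMEM35A like MMD2, DNAJB12 and RNFT1 (0.89 to 0.90). CXCR4 was most like HERC4 (0.90), HSPA4 (0.89) and PAN3 (0.87), and UAP1 like ZMYND10 (0.82), GCGR (0.81) and MGRN1 (0.80). All correlations between genes, here and above, used signals as measured, with dim signals not raised. CXCR4 had means under 100 in every group but SF3 at E7, and TMEM35A in the groups with rcSF3. UAP1 was wholly under 100 in its lowest group, E14 in rcSF3. At E7, the genes that shared the 10 largest falls with rcSF3 among the probe sets kept were NTNG2, FABP7, FABP3 and PLEKHB1. At E14 they were ATG9A, COL1A2 and CYP3A5, and the largest fall at both ages was that of a probe set with no symbol.

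Markers of other cells were read beside these falls. Among the macrophage or microglia markers, 10 of the 12 listed were measured and 6 to 8 of them had means under 100 in each group, with PTPRC, SPI1 and ITGB2 at or under 51.7 in all groups. Their summed signal was 6704 to 7964 in SF3 at E7 and 4968 to 5517 in rcSF3, and CD74, at 6486 and 3499, made up most of it. CSF1R, of the same list, went the other way at E7, from 508 in SF3 to 1304 in rcSF3. With serum at E7 it went from 929 to 1071. The summed signal of the macrophage or microglia markers was then higher in rcSF3 (4695 to 5120) than in SF3 (4190 to 4638). CD74 went from 3068 to 3351 there. The summed signal of the 12 mesenchyme markers was 5770 to 9230 in SF3 and 1961 to 3923 in rcSF3 at E7. With serum it was 12050 to 20150 in SF3 and 5845 to 8296 in rcSF3, with TWIST1 and TWIST2 under 100 in all groups. At E14 it was 5704 to 7549 in SF3 and 2624 to 4013 in rcSF3. At E7 without serum, 7 of the 12 mesenchyme markers had means under 100 in SF3 and 6 in rcSF3. COL1A2 (2146 to 709), COL3A1 (1837 to 498) and POSTN (1745 to 501) made up most of the sum there. PRRX1 (76.0 to 112) and DCN (62.8 to 86.2) went the other way, as did TWIST1, TWIST2, LUM and ACTA2, which were under 100 in both. The sum of the neuron markers overlapped between SF3 (3747 to 4382) and rcSF3 (4305 to 5343) at E7. The summed signal of the photoreceptor markers, of which 5 of 10 were measured, was 2965 to 3800 in SF3 and 769.9 to 920.5 in rcSF3 at E7, and with serum 2415 to 3321 and 904.8 to 1215. GNAT2, the cone transducin, made up most of it in SF3, with 2780 against 358 in rcSF3. Of its other members at E7 without serum, ARR3 went from 150 to 200 and GUCA1A from 230 to 149.5. GNAT1 and PDE6H had means under 100 in those groups. The sum of the glia markers (8 of 9 measured) was 21900 to 25220 in SF3 and 12020 to 15550 in rcSF3 at E7, and with serum 21720 to 22910 and 18000 to 20900. Its member FABP7 went from 14040 to 976 without serum and from 5996 to 706 with it. AQP4 went from 313 to 165 without serum. Other members of that list went the other way at E7 without serum, SOX10 from 1220 to 3233 and GLUL from 7141 to 8752. With serum SOX10 went from 6201 to 9175 and GLUL from 9566 to 9479. At E14 without serum, the macrophage or microglia sum was 4518 to 5249 in SF3 and 4948 to 6234 in rcSF3. The photoreceptor sum was 1418 to 2829 and 1208 to 1846, and the glia sum 10210 to 15960 and 12040 to 16430. Each of these E14 sums overlapped between the media. The part of these cells in the falls of the 7 genes was not tested.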

How the data were processed

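RNA of cultured chick RPE was hybridized to Affymetrix chicken genome arrays, 24 arrays in 8 groups of 3. The authors computed 1 intensity per probe set with GeneChip Operating Software, scaled each array to a common level, and deposited the values on the linear scale. The mean of each array without the highest and lowest 2% was 500.1. Neither a software version nor the background correction is stated in the sources used here. Detection calls were not used. Of 38535 probe sets, 96 controls were left out. Symbols came from the platform annotation, in which 27168 probe sets have 1 symbol, 177 have several and 11094 have none.

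Here the deposited intensities were turned into log2 values, not normalized again, and fitted with limma 3.58.1 in R 4.3.3 (lmFit, eBayes with a mean-variance trend). Media were compared within an age (12 arrays, 4 groups) and ages in 1 model of 24 arrays. Adjusted p values are by Benjamini and Hochberg over all probe sets kept, the brighter 50% by mean log2 signal at an age or, between ages, the 20021 kept at either age. The fit was tested on simulated data. The number of arrays limits the precision. A gene with more than 1 probe set is given by its brightest kept one. Named partner genes are those of each pathway list with the lowest p, up to 4 for rcSF3 against SF3 at E7 and up to 2 in other comparisons, and a few were named after their values were seen, to set beside a member. Other named genes are the 3 most correlated with each member and the named ones among the 10 largest falls at each age. The members and lists were chosen with earlier results of these data known. The signal of 100 was set as a bound on dim values.

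Replicate numbers come from the sample titles. The deviations of same-numbered arrays from their group means correlated over 0.1 in 6 of 6 pairs of media within a serum state at E14 (0.131 to 0.270) and in 5 of 6 at E7 (0.0361 to 0.199), and in 0 of 12 pairs across serum states at each age. The numbers were thus read as pairs between rcSF3 and SF3 within a serum state, less clearly for the media with serum at E7 (0.1065, 0.0361 and 0.1311). The main fits had no term for this pairing, so their SE and p values do not use it. It entered only the fits with a replicate block. Figures were drawn with matplotlib 3.10.9 in Python 3.11.15.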

Additional observations from a re-analysis of the deposited data

Results flagged for a closer look

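The response of IL13RA2 to rcSF3 in the presence of serum differed between the ages, by 2.91 on the log2 scale (adjusted p = 2.2e-05 by limma). Its fall was 3.56 at E7 and the difference was -0.66 at E14. In SF3 with serum IL13RA2 was 5.27-fold lower at E14 than at E7, and the part of this in the smaller response was not tested. The response of NPTX2 differed by 1.52 (adjusted p = 0.015), with differences of -3.62 at E7 and -2.10 at E14. In rcSF3 with serum the E14 arrays of IL13RA2 lay above the E7 arrays (0.51, adjusted p = 0.12), and NPTX2 differed by 0.31 (adjusted p = 0.36), or by 0.57 and 0.56 on its other probe sets.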

How the results depend on the processing

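The alternatives were quantile normalization, no filter on dim probe sets, signals under 100 raised to 100, no mean-variance trend, an analysis of variance without moderated variances, all 24 arrays in the fit, the replicate block, and leaving out each array. Of the values for single members under these settings, 460 kept their direction and side of the threshold, 17 lost the threshold, 3 gained it and 3 turned. Those that turned were near 0. CXCR4 between the ages in rcSF3 with serum became 0 with signals raised to 100, IL13RA2 in the same comparison was -0.28 with its second probe set, and UAP1 in the age difference of the response was 0.052 without the first array of rcSF3 with serum at E14 (range -0.55 to 0.052 over single arrays). The arrays are 3 per group, and dim signals limit CXCR4, TMEM35A and UAP1.

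In rcSF3 with serum at E7, 6 partners were called without the filter and 5 with the analysis of variance, against 12. At E14 the same comparison called 540 probe sets, 277 without the filter, 218 without the trend, 145 with the analysis of variance and 879 with all 24 arrays. It called 1 partner, which became 0 with quantile normalization, without the filter, with signals raised to 100, without the trend or with the analysis of variance, and 3 with all 24 arrays. The members lower there were 3, and 1 with the analysis of variance. In rcSF3 without serum at E14 the probe sets went from 1840 to 1164 with the analysis of variance, and the partners from 10 to 6 with it or without the trend. For the difference between the ages in the response, 300 probe sets became 177 without the filter, 151 without the trend and 171 with the analysis of variance, and the members higher went from 2 to 1 with the last.

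With the replicate block within a serum state, rcSF3 with serum at E14 called 1507 probe sets and 3 partners, rcSF3 without serum at E14 3005 probe sets, and the difference between ages 920. For the media with serum at E7, whose numbers paired less clearly, the block raised the probe sets from 4029 to 4940. The members lower stayed at 6, a count that here and below includes the dim CXCR4. Beside TMEM35A at E14, given in the report, the block changed no member's call. The block within a serum state cannot be fitted for serum against no serum, nor for the levels of E14 against E7, since the blocks then lie inside the groups. For the age difference of the response, a contrast within ages, it could.

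Leaving out 1 array gave these ranges. In rcSF3 with serum at E7, probe sets ran from 2326 (without the first array of rcSF3 with serum) to 3815, partners from 6 to 9 and members lower from 5 to 6. In rcSF3 with serum at E14, probe sets ran from 107 (without the second array of rcSF3 with serum) to 490, partners from 0 to 1 and members lower from 3 to 4. In rcSF3 at E14 without serum, probe sets ran from 1043 (without the second array of SF3) to 1547 and partners from 4 to 8. With serum alone at E14, partners ran from 12 to 19. Between the ages in SF3 with serum, members higher ran from 0 to 1. For the age difference of the response, probe sets ran from 74 (without the first array of rcSF3 with serum at E7) to 430 and members higher from 1 to 3.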
